A study of Homo sapiens with 20 samples.

Results

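Histone H3 monomethylated at lysine 4 (H3K4me1) was mapped by ChIP-seq in HCT116, a human colorectal carcinoma line long established in culture, as wild type (WT, labelled MLL4WT) and as an MLL4 knockout (KO, labelled MLL4KO). These 2 libraries, 1 per genotype, were chosen by their sample titles from the 20 libraries of the series. The other libraries hold H3K4me3, H3K27ac, p53, MLL4 and MLL1 ChIP and 2 inputs. Cells of both genotypes were grown in DMEM with serum and no treatment is named, so absence of MLL4 is the labelled difference between the groups. The labels do not say how the KO was made, or whether it is 1 clone or a pool. The measurement is the broad peak, an interval in which reads exceeded the input. The WT list held 122917 such peaks on chromosomes 1 to 22 and the KO list 42864. Each genotype has 1 H3K4me1 library, so no value below has a replicate check and no difference was tested.

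MLL4, encoded by KMT2D, is a methyltransferase that places the first methyl group on lysine 4 of histone H3, chiefly at enhancers, and its close relative MLL3 is encoded by KMT2C. H3K4me1 covers active and poised enhancers, and it also forms a pair of shoulders on either side of the nucleosomes with H3K4me3 at active promoters, where the SET1 and MLL1/MLL2 complexes work. H3K27ac marks those enhancers and promoters that are active.

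The MLL4 library labelled WT held 55887 peaks on these chromosomes and the one labelled KO held 257. Of the 10 colon epithelial markers examined, all had WT H3K4me1 in the gene or within 10 kb of it, and 9 had it in KO. The exception was VIL1, which encodes villin of the intestinal brush border. Of all 19122 protein-coding genes on these chromosomes, 90.9% had H3K4me1 in WT and 80.7% in KO by the same measure. The marker counts thus lie near that background. Markers of other lineages were not free of H3K4me1 in WT. All of the 5 blood and 3 neuronal markers had some, as did 3 of 4 mesenchymal markers. The median share of a marker locus covered in WT was 36.2% for colon, 26.95% for mesenchymal, 9.37% for blood and 3.97% for neuronal markers. In KO these medians were 8.63%, 7.05%, 0.635% and 2.04%. Blood marker loci ranged from 0.801% to 65.2% in WT, and colon marker loci from 16.8% to 84.5%. In the longer gene lists used below, WT medians were 20.8% for blood lineage, 20.6% for intestinal transcription factor and 34.1% for epithelial genes.

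These 4 promoters show the arrangements that recur below, and the 250 bases before each start are printed 5′ to 3′ on the strand of the gene, with CpG dinucleotides in capitals. The sequences are RefSeq's on GRCh38.p14, the hg38 build of the lists. CDKN1A encodes the p53-induced cell cycle inhibitor p21 and CDX2 the homeobox factor of intestinal identity. CDK1 is the kinase that drives mitosis and KRT20 encodes a keratin of differentiated colon cells.
CDKN1A: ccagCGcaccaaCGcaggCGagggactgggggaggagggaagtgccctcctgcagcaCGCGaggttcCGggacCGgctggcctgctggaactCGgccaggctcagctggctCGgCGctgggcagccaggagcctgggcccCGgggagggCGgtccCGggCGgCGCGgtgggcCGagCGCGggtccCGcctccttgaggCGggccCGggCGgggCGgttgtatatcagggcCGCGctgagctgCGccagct
CDX2: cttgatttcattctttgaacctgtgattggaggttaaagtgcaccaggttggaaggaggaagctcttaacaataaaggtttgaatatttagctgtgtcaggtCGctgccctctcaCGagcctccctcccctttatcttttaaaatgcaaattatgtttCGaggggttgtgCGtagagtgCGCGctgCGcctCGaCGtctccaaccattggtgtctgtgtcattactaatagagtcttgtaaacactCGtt
CDK1: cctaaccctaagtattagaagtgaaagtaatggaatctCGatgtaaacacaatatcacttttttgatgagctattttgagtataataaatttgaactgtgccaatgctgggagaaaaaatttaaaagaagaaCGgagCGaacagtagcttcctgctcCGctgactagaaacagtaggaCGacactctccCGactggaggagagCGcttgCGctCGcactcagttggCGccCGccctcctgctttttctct
KRT20: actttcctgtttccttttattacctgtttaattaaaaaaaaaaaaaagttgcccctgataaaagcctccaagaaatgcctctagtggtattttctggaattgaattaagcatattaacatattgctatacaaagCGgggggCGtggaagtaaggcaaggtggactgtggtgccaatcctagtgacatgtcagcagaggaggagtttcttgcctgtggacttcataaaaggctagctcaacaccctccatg
The CDKN1A stretch is chr6:36678464-36678713 on the plus strand and holds 27 CpG. All 4000 bases within 2 kb of its start were under H3K4me1 in WT and 1576 were in KO. The CDX2 stretch is chr13:27969316-27969565 on the minus strand with 10 CpG, and H3K4me1 within 2 kb of the start covered 2328 bases in WT and 500 in KO. CDK1 (chr10:60778081-60778330, plus strand, 11 CpG) had no H3K4me1 within 2 kb in WT and 2125 bases in KO, beside 2006 bases of WT H3K4me3. KRT20 (chr17:40885243-40885492, minus strand, 2 CpG) had 1309 bases in WT, none in KO and no H3K4me3. So the first start had mark throughout in WT and in part in KO, CDK1 had it in KO alone and KRT20 in WT alone.

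When peaks that overlapped by at least 1 bp were merged, 122431 regions held a WT peak, and 95013 of them (77.6%, 95% Wilson interval 77.4 to 77.8%) met no KO peak. In the other direction, 8375 of 35793 KO regions (23.4%, interval 23.0 to 23.8%) met no WT peak. These intervals, like all below, cover counting error over regions only. WT peaks covered 214 Mb and KO peaks 49.0 Mb. KO peaks covered 17.4% of the WT bases, whereas 76.1% of the KO bases lay under WT peaks. The KO map was thus largely a subset of the WT map, with 52.4% of KO peaks lying wholly inside 1 WT peak. WT-only regions were short, with a median width of 769 bp against 2581 bp for shared regions. KO-only regions had a median of 452 bp. With the WT list cut to the length of the KO list by its strongest q-values, 54.1% of WT domains met no KO peak and 39.0% of KO peaks no WT domain, so about equal lists still shared only part of their peaks. With a −log10 q-value of at least 5 in both lists, KO peaks covered 4.07% of the WT bases.

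The broad end of the distribution differed most between the lists. The median peak was 950 bp wide in WT and 842 bp in KO, but the widest 5% began at 5740 bp in WT and at 3046 bp in KO. Domains, as peaks are called below, of at least 5 kb numbered 7811 in WT and 326 in KO. At 10 kb the counts were 2045 and 7, and at 20 kb they were 386 and 1. In WT, 33.8% of all covered bases lay in domains of at least 5 kb, and in KO 4.18%. Among the 21966 places where exactly 1 WT domain met exactly 1 KO peak, the KO peak was the narrower one in 77.9%. The median width there was 1820 bp in WT and 944 bp in KO. The median fold enrichment, which is the authors' ratio of ChIP signal over background, was 3.77 in WT and 3.76 in KO. Folds of at least 10 were found for 3273 WT and 105 KO peaks. A −log10 q-value of at least 5 was reached by 40.1% of WT and 9.64% of KO peaks, so KO peaks lay closer to the calling limit. Read depth is unknown, and the part of depth in the number, width and q-value of peaks was not tested.

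Wide WT domains were met in pieces more often than not at all, with 2 or more KO peaks in 39.5% of them. Of the 7811 WT domains of at least 5 kb, 26.5% met no KO peak, 34.0% met 1, 25.4% met 2 and 14.1% met 3 or more. With a −log10 q-value of at least 2 in both lists the order turned, with 28.4% in 2 or more pieces and 36.5% met by none. KO peaks covered 22.8% of the bases of these wide domains at the deposited threshold. The 10747 pieces had a median width of 1212 bp, and domain edges kept less than centres. When each wide domain was cut along its length into 10 equal parts, KO peaks covered 14.9% of the first part and 15.5% of the last, and 26.0% and 26.2% of the central parts 5 and 6. H3K4me3 followed the same course along the domains, with 9.60% and 11% of the edge parts and 18.9% and 19.2% of the central ones. H3K27ac did so too, with 61.2% of each edge part and 73.5% and 73.2% of the central ones. In the 3249 wide domains without H3K4me3, KO peaks also covered less of the edge parts (3.43% and 3.15%) than of the central ones (6.03% and 6.18%). The share of domains met by any KO peak was 5.44% below 500 bp and 97.9% at 20 kb or more. Per 10 kb of WT domain, however, KO pieces numbered 1.62 in the shortest class and 1.40 in the widest, so wide domains did not hold more pieces for their length. Peaks within the KO list are never closer than 785 bp and within the WT list than 841 bp, so narrower gaps could not appear as breaks.

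**Figure D1:**
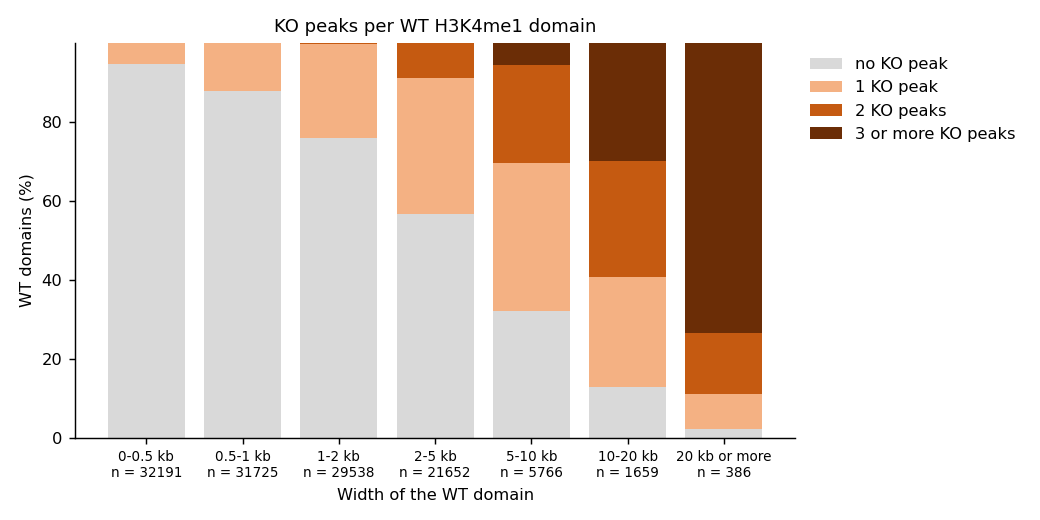
Share of WT H3K4me1 domains (y axis, percent) by the number of KO peaks they meet, for 7 classes of WT domain width (x axis, with the number of domains). The grey share without a KO peak goes from 94.6% below 500 bp to 2.07% at 20 kb or more, where 73.6% of domains meet 3 or more KO peaks.

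The widest WT domain spanned 75003 bp at EPHA2, a receptor tyrosine kinase of epithelial cells (chr1:16118279-16193281). It held 8 KO pieces that covered 22.2% of it. The second widest, 69931 bp on chromosome 8 from GSDMD to GFUS, met 13 KO peaks that covered 53.9%. A domain of 67261 bp on chromosome 16, from RHOT2 to CIAO3, met 16 KO peaks, the most of any domain, with 41.3% of its bases covered. The STK11 domain, at the gene of the energy-sensing kinase LKB1, spanned 66176 bp with 15 pieces and 38.8%. A domain of 66153 bp at ACTN4, which encodes an actinin that bundles actin, met 7 KO peaks, but they covered 6.50% of it. The 5 widest domains thus spanned 66153 to 75003 bp in WT, with KO coverage from 6.50% to 53.9%. The domain from RHOT2 to CIAO3 spans 11 genes and 8 WT H3K4me3 regions, and the ACTN4 domain 1 gene and 4 such regions.

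The widest WT domains with no KO peak, chosen after their values were seen, lay at ZMIZ1 (32033 bp), DLG5 (25972 bp), DAB2IP (25615 bp), CCDC85C (21945 bp) and ZC3H3 (21385 bp). None overlapped a WT H3K4me3 region, and each overlapped at least 1 H3K27ac and 1 MLL4 region. In the other direction, the widest KO domain was 21897 bp at PLEC, the gene of the cytoskeletal linker plectin, inside a WT domain of 47580 bp. The second, 17098 bp at ITPRID2 (chr2:181893856-181910953), lay where WT had 3 peaks with 2638 bases together. VGF (12126 bp), LTBP4 (11721 bp) and FRMD8 (11415 bp) followed, each inside WT H3K4me1 along its whole length.

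Position relative to H3K4me3 separated what KO kept from what it did not. Inside the 16755 WT H3K4me3 regions, those called in both WT libraries, 72.3% of bases were under H3K4me1 in WT and 48.3% in KO, and 61.7% of the WT bases were kept. Kept bases are those under a WT and a KO peak. Within 500 bp outside an H3K4me3 region 62.2% were kept, from 500 to 1000 bp 36.7%, and from 1 to 2 kb 20.4%. Farther out the share was 11.7% at 2 to 3 kb, 7.30% at 3 to 5 kb and 4.40% at 20 to 50 kb. The WT list itself thinned over the same distances, from 77.6% of bases within 500 bp to 9.23% at 20 to 50 kb. KO coverage went from 59.4% to 0.605%. Of all KO bases, 34.0% lay inside WT H3K4me3 regions and 38.7% within 2 kb outside them.

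**Figure D2:**
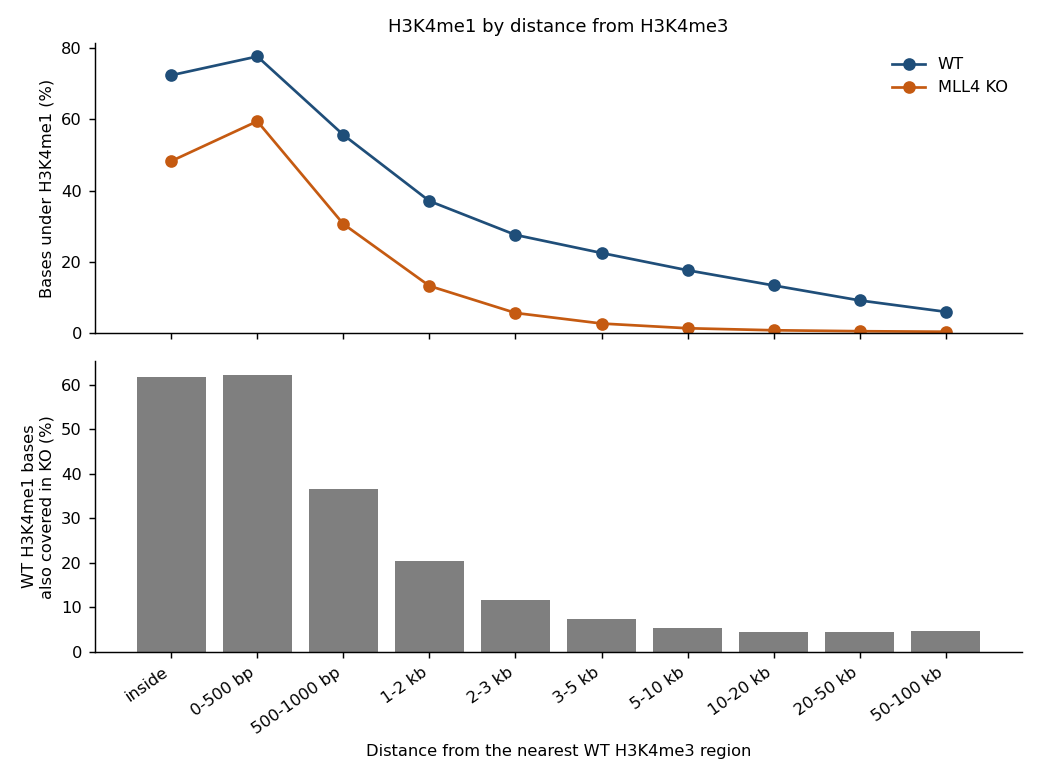
H3K4me1 by distance from the nearest WT H3K4me3 region (x axis). The upper panel gives the percent of bases under H3K4me1 in WT (blue) and KO (orange), and the lower panel the percent of WT H3K4me1 bases also covered in KO, which is 62.2% within 500 bp and 4.40% at 20 to 50 kb.

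Around transcription starts the kept part was one-sided. Starts were those of the 15100 protein-coding genes with a RefSeq promoter, out of 19122 on these chromosomes, and 9396 of them had WT H3K4me3 within 1 kb. At these 9396 starts WT H3K4me1 formed shoulders of near equal height, covering 71.5% of starts at 850 bp upstream and 74.4% at 1350 bp downstream, with 47.7% at 50 bp downstream between them. KO had the downstream shoulder at 75.7%, reached 1450 bp from the start, while its upstream shoulder reached 48.1% at 950 bp and the middle 16.3%. From 1 to 3 kb downstream, 89.5% of starts had WT and 93.3% had KO H3K4me1, and 61.2% and 59.2% of the bases were covered. From 3 to 1 kb upstream 81.7% of starts had it in WT and 68.9% in KO, with 44.9% and 28.1% of bases. Within 300 bp of the start the bases covered were 50.1% and 17.9%. Beyond the shoulder, from 3 to 5 kb downstream, coverage was 33.7% in WT and 17.2% in KO.

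How the downstream shoulder of the KO list compared with that of the WT list depended on the threshold. With a −log10 q-value of at least 2 in both lists, 60.4% of the bases from 1 to 3 kb downstream were covered in WT and 55.3% in KO. With a −log10 q-value of at least 5 in both lists, 51.3% of the bases from 1 to 3 kb downstream were covered in WT and 10.1% in KO, so the KO peaks there were weak ones. With the WT list shortened to the length of the KO list by its strongest q-values, the order turned to 48.4% in WT and 59.2% in KO. H3K4me3 regions also reached farther into the gene in KO. At 1550 bp downstream they covered 62.3% of these starts in KO and 39.6% in WT. At 1450 bp upstream these shares were 32.0% and 24.1%. Each region joins overlapping peaks of both libraries, so a base counted as covered where the peak of only 1 library reached it. Whether the position of H3K4me3 has a part in the H3K4me1 pattern was not tested.

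At the 5704 starts without H3K4me3 the pattern was a single summit. WT H3K4me1 covered 24.7% of them at 50 bp downstream and KO 3.94%. From 1 to 3 kb downstream 14.0% and 2.12% of the bases were covered, and from 3 to 1 kb upstream 13.4% and 2.17%. The downstream shoulder of KO was thus not seen at starts without H3K4me3.

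**Figure D3:**
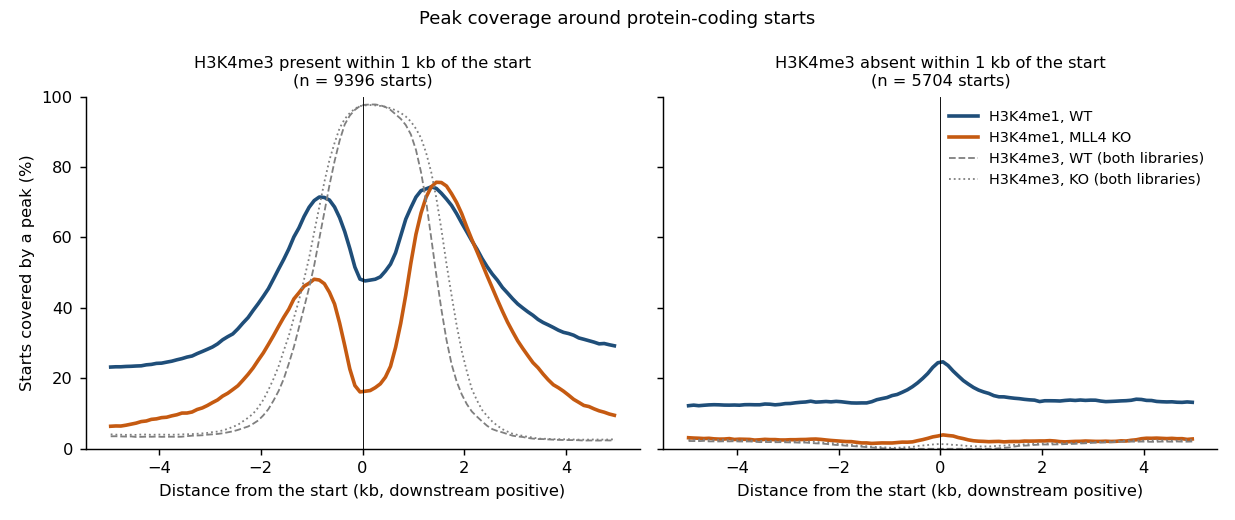
Percent of protein-coding starts (y axis) covered by a peak at each distance from the start (x axis, kb, downstream positive), for 9396 starts with and 5704 without WT H3K4me3 within 1 kb. H3K4me1 is blue in WT and orange in KO; grey lines give H3K4me3. Both genotypes reach about the same height downstream of starts with H3K4me3 (74.4% and 75.7%), and KO is lower upstream and at the start.

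Individual genes showed the same sides. Over the 9396 starts with H3K4me3, KO had fewer bases than WT from 3 to 1 kb upstream at 62.5%, and from 1 to 3 kb downstream at 50.1%, with more bases than WT downstream at 40%. CDKN1A had 2000 WT and 363 KO bases upstream and 2000 and 1646 downstream. At MDM2, the ubiquitin ligase that restrains p53, upstream bases were 736 in WT and none in KO, and downstream bases 304 and 1942. ZMAT3, a p53-induced RNA-binding protein gene, had no base of H3K4me1 in the downstream window in WT and 1468 in KO. All 19 p53 target genes with a matched start had H3K4me3 there and H3K4me1 within 2 kb in both genotypes. So did 9125 of the 9396 starts with H3K4me3, so this count is near that of all such starts. Upstream, 13 of the 19 had fewer KO bases and 4 more, and downstream 9 had fewer and 6 more. PLK3 and SFN had 2000 bases on both sides in WT, and in KO none upstream and 2000 downstream.

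Housekeeping and ribosomal protein genes, 12 with H3K4me3 at a matched start, had fewer KO bases downstream at 4 and more at 6. Of the genes of enzymes that remove methyl groups from H3K4, 4 of 4 had more KO bases downstream. At KDM5B the values were close, with 1244 bases in WT and 1267 in KO. Examples are KDM5A with 564 bases in WT and 1695 in KO and KDM1A with 709 and 1448. Genes of intestinal transcription factors lay on the other side of the 50.1% background, with fewer KO bases downstream at 8 of 8. CDX2 had 1874 and 1087 bases there, KLF4 2000 and 1090, GATA6 2000 and 1069, ELF3 2000 and 706, and KLF5 255 and 0. Wnt feedback and stem cell genes had fewer at 7 of 8. EPHB2, the ephrin receptor of crypt cells, had 2000 and 1216 bases downstream, and 850 and 32 upstream. This side was not particular to intestinal genes. Neuronal genes had fewer KO bases downstream at 4 of 4, and AP-1 and early genes at 8 of 11, with more at 3. Genes of epithelial adhesion, keratins and laminins had fewer KO bases upstream at 10 of 10, against 62.5% of all such starts. Upstream of the integrin gene ITGA2 WT had 1812 bases and KO none, while downstream WT had 484 and KO 1486. AP-1 and early genes had fewer KO bases upstream at 10 of 11 and HOX genes at 3 of 3. Neuronal genes had fewer there at 1 of 4. These counts by list were made at the deposited threshold only.

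Presence within 2 kb of the start followed H3K4me3 in the same way. Of 11518 starts with WT H3K4me1 in that window, 1849 (16.1%) had none in KO. Starts with the mark in both genotypes had H3K4me3 in 94.4% of cases, starts with it in WT alone in 5.52%, and the 245 starts with it in KO alone in 58.4%. The named members with WT mark alone were HNF4A, EHF, TNFRSF19, KRT20, HK1, COL5A1, CSF1R, CD14, PAX5, RUNX3, MAP2 and PAX6, none with H3K4me3. CCNA2, TBP and TAL1 had it in KO alone. For CCNA2, which encodes cyclin A2, KO H3K4me1 covered 1736 bases downstream. These names include every list member in those classes.

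The promoter sequences of these classes differed in CpG content. The median number of CpG per 300 bases, 250 before and 50 after the start, was 27 in starts with H3K4me1 in both genotypes, 7 with WT alone, 24 with KO alone, 5 with neither and 22 in all 15100. Among starts with H3K4me3, 96.0% to 99.3% of those with WT H3K4me1 also had it in KO, over 5 classes of CpG number. Among starts without H3K4me3 the share was 21.6% below 5 CpG and 25.3% at 30 or more, with overlapping intervals (18.9 to 24.7% and 20.1 to 31.3%). The letters of 4 motifs were counted on both strands. TGANTCA, the core of AP-1 sites, was in 4.14% of promoters with the mark in both genotypes, 8.60% with WT alone and 5.70% of all. CTTTGA, the core of TCF/LEF sites, was in 7.75%, 13.4% and 10.8%. The GC box GGGCGG was in 73.5%, 38.2% and 58.9%, and the E-box CACGTG in 10.7%, 6.11% and 8.77%. In promoters with the mark in neither genotype, TGANTCA was in 8.75%, CTTTGA in 18.2%, GGGCGG in 28.0% and CACGTG in 5.06%. TGANTCA and CTTTGA were thus no rarer with neither than with WT alone. Among starts without H3K4me3, TGANTCA was in 9.01% with both, 8.87% with WT alone and 8.76% with neither. For CTTTGA these shares were 10.7%, 13.7% and 18.2%. GGGCGG contains a CpG and so moves with the CpG content, and CACGTG contains one too. Of the stretches printed above, those of CDKN1A and CDK1 hold GGGCGG, that of CDX2 holds CTTTGA and that of KRT20 holds none of the 4.

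Of the 5 marks and factors compared, H3K4me3 gave the widest split between domains met and not met by a KO peak. Of 18801 WT domains with H3K4me3, 92.4% met a KO peak (interval 92.0 to 92.8%), and of 104116 without it, 10.1% (9.94 to 10.3%). Their bases were kept at 39.3% and 5.02%. Among domains without H3K4me3, those with H3K27ac in both genotypes were met at 32.1%, and those with H3K27ac in WT but not called in both KO libraries at 7.43%. Domains without H3K4me3 that overlapped an MLL4 peak were met more often than the others, at 19.5% against 9.40%. For p53 regions the pair was 20.3% and 9.72%, and for MLL1 peaks 33.9% and 8.84%. The domains with these factors were also wider, with a median of 2066 bp for MLL4 against 779 bp, and when bases were counted in place of domains the MLL4 pair was 5.55% and 4.91% and the p53 pair 5.94% and 4.93%. By bases the MLL1 pair was 9.39% and 4.37%, and H3K27ac in both genotypes stood at 8.64% against 2.78% for H3K27ac in WT but not called in both KO libraries. Any contact with a KO peak is more likely in a wide domain, and the part of width in these pairs was not tested.

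Strength in WT ran with presence in KO. With WT domains divided into 10 equal groups by fold, those without H3K4me3 met a KO peak at 3.46% in the weakest group and 32.6% in the strongest. With H3K4me3 the shares were 77.3% and 96.4%. The weakest domains with H3K4me3 were thus met more often than the strongest domains without it. The share of bases kept went the other way in domains with H3K4me3, from 54.4% in the weakest group to 36.2% in the strongest. Without H3K4me3 it went from 2.13% to 9.10%. Stronger domains were also wider. The median width went from 647 bp in the weakest group to 4597 bp in the strongest with H3K4me3, and from 468.5 to 2332.5 bp without it. The part of width in these trends was not tested.

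**Figure D4:**
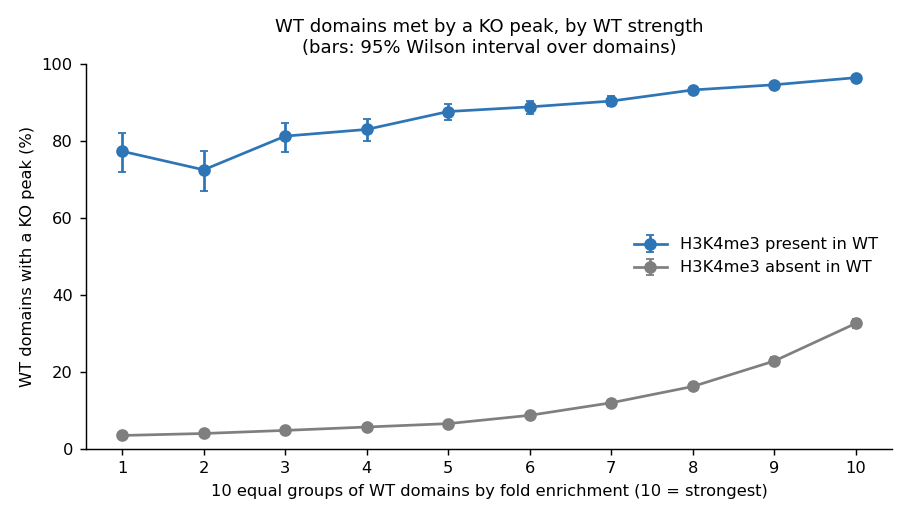
Percent of WT H3K4me1 domains that meet a KO peak (y axis) in 10 equal groups by the authors' WT fold enrichment (x axis, 10 strongest), for domains with (blue) and without (grey) WT H3K4me3. Bars are 95% Wilson intervals over domains. The weakest group with H3K4me3 lies at 77.3% and the strongest group without it at 32.6%.

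Ranks of fold were compared within each list, as the lists differ in length and strength. Over 27418 shared regions, Spearman's rho between the strongest WT and the strongest KO fold was 0.31, as a description across regions that share the same 2 libraries. The KO fold was the lower one in 79.5%, with medians of 5.63 in WT and 3.98 in KO. Shared regions stood at the median percentile 79.3 of the WT list and 59.9 of the KO list. For shared regions without H3K4me3 these percentiles were 74.2 and 35.9. The 27418 shared regions were part of 122431 regions with a WT peak but of only 35793 with a KO peak. A set that makes up most of a list lies near its middle, so the gap between the percentiles 79.3 and 59.9 partly follows list length. Of 12281 WT regions in the top 10% by fold, 62.8% met a KO peak. Those that were also in the top 10% of KO numbered 1980, of which 1847 had H3K4me3 and 133 did not.

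The highest WT fold, 32.7, lay at SLC16A3, which encodes the lactate exporter MCT4. KO had a fold of 8.05 there, and its peak covered 7.59% of the WT domain of 9841 bp. LAMA5, a laminin chain gene, had folds of 22.7 and 4.02. The largest drops in percentile from the WT top 10% were at JADE2 (fold 10.6 in WT and 2.36 in KO), TNS3 (10.1 and 2.59), RBM20 (11.3 and 2.92), a region 74907 bp from ZEB1 (10.6 and 2.89) and one 17854 bp from SERPINA6 (9.68 and 2.76). Of these 5 regions, only the one at TNS3 overlapped H3K4me3. The largest rises into the KO top 10% were in short regions, from 308 to 1015 bp, in CLCN6 and ZNG1E, 202 bp from BRD7, 91599 bp from OXCT1 and at a place 379033 bp from the nearest gene of the table. At BRD7 the fold was 2.38 in WT and 8.28 in KO. The 5 highest KO folds were all on chromosome 1, at a place 23086 bp from NFIA (59.4), 45 bp from ACOT7 (43.8), and in CEP85 (28.4), MACF1 (27.9) and IFFO2 (25.3), and the WT folds of the first 4 were 3.82, 7.32, 5.21 and 4.52. IFFO2 had no WT peak.

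KO-only peaks were small and mostly away from other marks. Their median width was 452 bp and their median fold 3.32, against 978 bp and 3.91 for KO peaks on WT domains. No H3K4me3 or H3K27ac of either genotype was called at 76.5% of them, against 15.8% of KO peaks on WT domains. Their median distance to the nearest WT domain was 2699 bp, and 25.8% lay within 1 kb of one. A −log10 q-value of at least 5 was reached by 144 of the 8375. WT H3K4me3 overlapped 14.8% of them. All KO bases outside WT domains are a wider set, 11.7 Mb against 5.11 Mb in KO-only peaks. They include the parts of other KO peaks that reach past a WT domain. Of this wider set, 10.8% lay inside WT H3K4me3 regions and 45.2% within 2 kb outside them.

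A minority of genes had more H3K4me1 in KO than in WT. Taking a gene with 10 kb on each side as its locus, 1824 of the 17554 loci with any H3K4me1 did (10.4%). ITPRID2 had the most KO-only bases, 19070, with 10638 bases in WT and 23701 in KO. HSPH1, the third by KO-only bases, which encodes a cochaperone of the HSP70 system, had 5801 and 15452 bases. PRKACB, GPHN and ARHGAP24 were the others among the first 5 by KO-only bases, but WT covered more of these loci (22672, 77314 and 24167 bases) than KO (16297, 30270 and 15232). CDK1, ZC3H15, SRSF11, EIF4G2 and HSP90B1 were picked after their values were seen. CDK1 had 677 bases in WT and 8654 in KO, ZC3H15 none and 7352, SRSF11 2140 and 12665, EIF4G2 3839 and 10989, and HSP90B1 6829 and 13653. The highest fold at the CDK1 locus was 3.29 in WT and 4.38 in KO, and the widest KO domain there spanned 7428 bp. Where WT had fewer bases, it could still have signal under the calling limit.

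Across 17375 gene loci with WT H3K4me1 the median kept share was 22.2% (middle range from 9.27% to 37.9% at the quartiles), and 2765 loci (15.9%) kept none. Loci with at least 50 kb of WT H3K4me1 had a median of 10.8%, and those with 2 to 5 kb 29.7%. Below 2 kb the median was 0, as 60.9% of those 2421 loci kept none. GSE1, which encodes a subunit of a chromatin corepressor complex, had the most WT bases, 365465 in 78 peaks, and kept 9.24% with 64 of its peaks unmatched. HIVEP3 (211888 WT bases) kept 6.93%, ANKRD11 (201143) 13.2%, RAD51B (199213) 3.31% and RBFOX3 (179596) 5.88%. RPTOR, which encodes raptor of the mTORC1 complex, kept 9.07% of 179477 bases, and ZNF469 14.8%, CAMTA1 10.9% and SEPTIN9 11.2%. ZMIZ1, a coactivator gene, kept 2.85% of 173557 bases, and 3 KO peaks stood against 32 WT peaks. All 10 of these loci kept less than the median locus.

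Among loci with at least 10 kb of WT H3K4me1, the highest shares were kept at DLX2 (87.7%), GSTO1 (83.1%), RHEBL1 (78.9%), TM7SF2 (78.9%) and TNFSF12 (78.4%). DLX2 encodes a homeobox factor of forebrain neurons and GSTO1 a glutathione transferase. The locus of RHEBL1 overlaps that of KMT2D, named below, and both hold the same widest WT domain, of 10380 bp. PRICKLE2, TMPRSS6, ADAM12, C10orf105 and SLC38A8 had from 24410 to 35649 WT bases and kept none. ADAM12 did have 4 KO peaks with 2396 bases, all outside its WT peaks. PRICKLE2 had 26 WT peaks and no KO peak.

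Genes of H3K4 methyltransferase complexes, enzymes and other subunits together, were among the better kept loci. The 10 of them with a matched start all had H3K4me3, against 62.2% of all starts. Of 15 H3K4 methyltransferase complex genes on chromosomes 1 to 22, 14 lay above the median of all loci, with a list median of 36.9%. The locus of KMT2D, the gene of MLL4 itself, had 33530 WT and 14415 KO bases and kept 41.6%, KMT2A (MLL1) kept 50.6% and KMT2C (MLL3) 24.0%. RBBP5, a core subunit, kept 76.9% of 2874 bases, and SETD1A 9.06% of 33508. Loci of 4 demethylases had a median of 33.1%, from 17.5% at KDM5A to 53.5% at KDM5B. Housekeeping and ribosomal protein genes kept most, with 15 of 15 above the median of all loci and a list median of 51.9%. GAPDH kept 40.7% and EEF2 58.9%, and the lowest was ACTB with 26.8%. TBP kept all of its 2019 WT bases and had 8360 in KO.

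HOX genes, which set position along the body axis, had a median of 40.2%, with 14 of 16 above that of all loci. They ranged from 12.8% at HOXB2 to 67.7% at HOXA9. HOX genes lie in clusters, and loci of neighbouring genes can share peaks, so the 16 may not be separate observations. For 22 p53 targets the median was 31.7% and 15 were above. CDKN1A kept 30.2% of 18434 bases, FDXR 33.2%, PLK3 33.7% and MDM2 11% of 5464 bases. CCNG1, encoding cyclin G1, kept 99.2% of 2022 bases and had 6250 in KO. Cell cycle and replication genes had a median of 28.5%, with 12 of 16 above. MCM6 kept 99.7% of 2460 bases, and RRM2 8.90% of 46105. CCND1, the cyclin D1 gene, kept 22.3%.

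Signalling genes lay nearer to the median of all loci. Receptor kinase and ERK feedback genes had a median of 27.3% (13 of 20 above), from 71.9% at EREG to 10.7% at PHLDA1. EGFR kept 14.0% of 58884 bases, SPRED2 16.8% of 60247 and IGF1R 24.0% of 50859. AP-1 and early genes had a median of 26.1% (12 of 16 above). FOS kept 80.1% and FOSL1 55.9%, while MAFF kept 14.3% and MYC 15.2%. Cholesterol and glycolysis genes had a median of 23.1% (10 of 19 above). PKM, which encodes a pyruvate kinase, kept 40.6%. SQLE had 733 WT bases in the locus and kept none.

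The genes of intestinal identity kept about as much as a median locus. Intestinal transcription factor genes had a median of 23.3%, with 9 of 17 above. CDX2 kept 35.9%, HNF4A 20.7% of 21066 bases and TCF7L2, the nuclear effector of Wnt signalling, 15.4% of 153153. EHF, an epithelial ETS factor gene named after its values were seen, kept none of 7118 bases. For 16 Wnt feedback and stem cell genes the median was 21.8%, with 8 above. AXIN2, a feedback inhibitor of the pathway, kept 28.9%, and ZNRF3, a ubiquitin ligase that removes Wnt receptors, 9.99% of 95130 bases. EPHB2 kept 3.99% of 77501 bases, with 48 of its 51 WT peaks unmatched. Epithelial adhesion, keratin and laminin genes had a median of 20.6% (8 of 17 above). CDH1, the E-cadherin gene, kept 13.6%, LAMA3 6.59% and KRT8 26.3%. ITGA2 kept none of 10586 bases and had 2168 KO bases elsewhere in the locus.

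Lists of genes of other lineages had medians from 12.6% to 24.0%. TGF-beta and mesenchyme genes had a median of 19.2% (7 of 17 above), with SMAD3 at 10.3% of 122547 bases, COL5A1 at 1.72% and VIM at 73.4%. Blood lineage genes had the lowest list median, 12.6% (5 of 15 above), and 6 of 15 kept none. CSF1R, the receptor gene of macrophage growth factor, had 21945 WT bases in 11 peaks and no KO peak, PAX5 kept 6.97% of 45864 bases and CD8A 70.9% of 4532. Neuronal genes had a median of 24.0% (6 of 12 above), with the highest share, 87.7%, at DLX2.

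**Figure D5:**
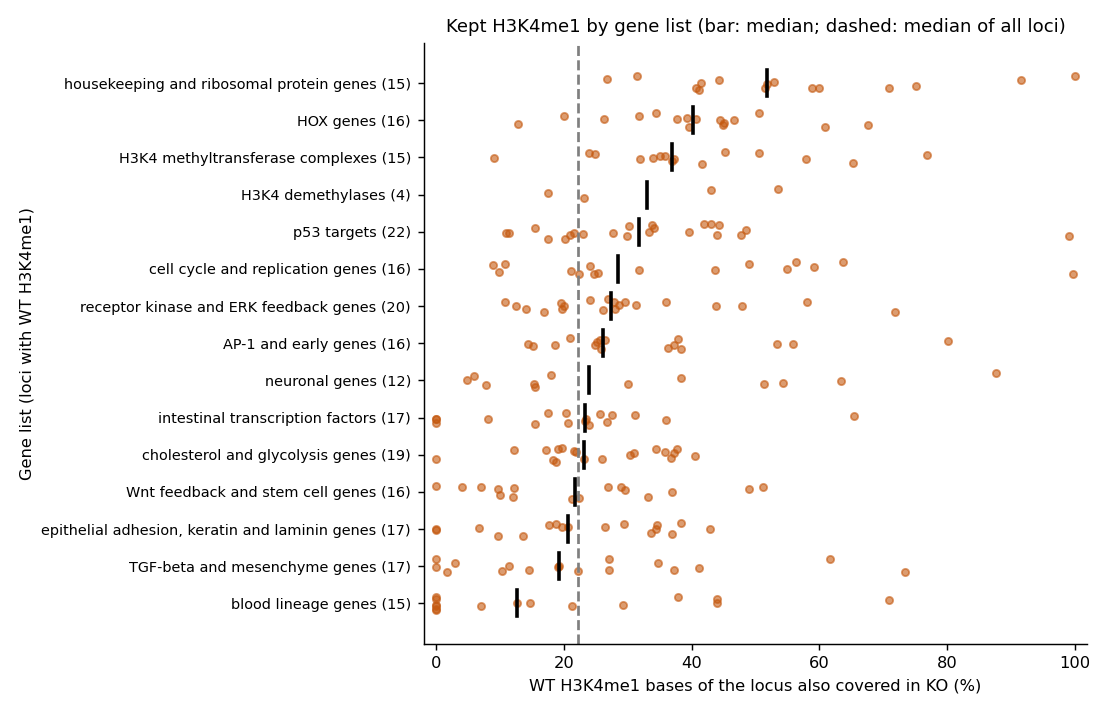
Percent of the WT H3K4me1 bases of a locus that were also covered in KO (x axis) for each gene (points) of 15 lists (y axis, with the number of loci that had WT H3K4me1). Black bars are list medians and the dashed line is the median of all loci, 22.2%. Housekeeping genes all lie above it, and blood lineage genes have the lowest median, 12.6%.

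The order of the lists depended on the locus definition and threshold for many of them. Over the 6 settings tried, H3K4 methyltransferase complex genes and HOX genes were above the median of all loci in 6. Housekeeping, p53 target, cell cycle, AP-1 and neuronal genes were above it in 5. The remaining setting for the latter lists was a −log10 q-value of at least 5, a tie in which their medians and that of all loci were 0. Blood lineage genes were above it in 1, and TGF-beta and epithelial genes in 2. Intestinal factor, Wnt and cholesterol lists were above it in 3.

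Most WT domains met no KO peak on each of the 22 chromosomes. The share of WT domains met by a KO peak was lowest on chromosome 18 (19.1%) and highest on chromosome 19 (33.3%). Chromosome 19 also had the largest share of WT domains with H3K4me3, 25.3%, against 12.5% on chromosome 18. Among domains without H3K4me3 the share met ran from 8.36% on chromosome 22 to 15.0% on chromosome 21.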

How the data were processed

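H3K4me1 was measured by ChIP-seq in 1 WT and 1 KO library of HCT116. Broad peaks were called with MACS2 2.1.1 on hg38, per the submitters' processing notes, each library alone against its genotype's input, as the names of the deposited peaks record. Aligner and depth were not given in the sources used here. Per peak, the authors deposited a fold (a ratio of ChIP over background), −log10 p and −log10 q values, and a score that was not used.

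Peaks on chromosomes 1 to 22 were merged where they overlapped by at least 1 bp. H3K4me3, H3K27ac and p53 regions were the joined peaks of both libraries of a genotype, kept where each library had a peak. Loci were protein-coding genes of RefSeq GRCh38.p14 with 10 kb on each side, and starts came from the RefSeq promoter table of that build. Loci of neighbouring genes can overlap and then share peaks. Interval code (Python 3.11.15, numpy 2.4.6, scipy 1.17.1, pandas 2.3.3) was tested on simulated intervals. Groups came from sample titles. With 1 library per genotype there was no test; shares have 95% Wilson intervals. Folds were compared as ranks within a list, set side by side, or counted as lower or higher between the lists without rescaling.

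The members, gene lists and settings were chosen with earlier results of these data known. Genes named are the 10 loci with most WT bases, the 5 highest and 5 lowest kept, the 5 with most KO-only bases, the 5 widest domains per genotype and those in most pieces, the 5 largest rank changes each way, the 5 highest folds, per list the members with most WT bases and the highest and lowest share, and 12 fixed genes. The others were named after their values were seen. Some genes named by this rule are not reported here. Alternatives were stricter q-values, equal list lengths, larger overlaps, joined peaks, single H3K4me3 libraries, other loci and chromosome X.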

Additional observations from a re-analysis of the deposited data

How the results depend on the processing

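No paired analysis was possible because each genotype has 1 H3K4me1 library and no test was made. The count of WT domains without a KO peak was 95013, and it became 45970 with a −log10 q-value of at least 5 in both lists and 23205 with equal-length lists. KO peaks without a WT domain numbered 8375, and 3195 with a −log10 q-value of at least 2, 514 with at least 5 and 16711 with equal lengths. WT bases kept were 17.4%, and 15.6%, 4.07% and 23.2% under those 3 settings and 17.3% with chromosome X. The median KO domain was 108 bp narrower than that of WT (a KO minus WT difference of -108), and the difference was -15, -454.5 and -1137 bp under the same 3. KO domains of at least 5 kb numbered 326, and 109 at a −log10 q-value of 5 and 585 with peaks under 1 kb apart joined. Wide WT domains in 2 or more KO pieces were 39.5%, and 28.4%, 2.83% and 42.4% under the 3 settings and 34.7% with joined peaks.

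WT domains with H3K4me3 met a KO peak at 92.4%, and at 82.9%, 20.3% and 94.9% under the 3 settings, 90.6% with overlaps of 200 bp and 89.4% with overlaps of 50% of the shorter peak. With H3K4me3 regions taken from 1 WT library, each replicate left out in turn, the range was 88.3% to 90.6%. Without H3K4me3 the share was 10.1%, and 6.35%, 0.853%, 21.7%, 9.20% and 9.06% in that order, with 8.62% to 9.96% for single libraries. Domains with H3K4me3 were met more often than those without under all of these. Spearman's rho was 0.31, and 0.29, 0.23 and 0.23 under the 3 settings. The median share kept per locus was 22.2%, and 19.6%, 0 and 29.3% under the 3 settings, 19.8% in gene bodies alone and 21.0% with 50 kb on each side. Of 15 lists 11 were above that median, and 4 at a −log10 q-value of 5, where most loci kept nothing.

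The difference between KO and WT in coverage from 1 to 3 kb downstream of starts with H3K4me3 was -1.95 percentage points. Settings for it were chosen after seeing the data. It was -5.07 and -41.2 at the stricter q-values and turned to 10.8 with equal lengths, where the WT list is shortened. With 1 H3K4me3 library left out it was -2.28 to -2.14. The causes of these shifts were not tested. Unknown depth limits every count of peaks, since a weaker library has fewer and shorter ones.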

Other observations

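Strong KO peaks were concentrated on chromosome 1. Of 105 KO peaks with a fold of at least 10, 45 (42.9%) lay there, while chromosome 1 holds 10.4% of the KO list, and 43 of the 45 lay in the first 125 Mb of the chromosome. Chromosome 2 came next with 8. In WT, 347 of 3273 peaks of that fold (10.6%) were on chromosome 1. At a fold of at least 8 the KO share was 63 of 225, and at 15 it was 18 of 32, both chosen after seeing the data. The 45 peaks had a median width of 666 bp, against 1588 bp for strong KO peaks elsewhere. WT also had a peak at 35 of them, with a median fold of 5.65, and 26 overlapped WT H3K4me3. The cause was not tested, and the values of the inputs were not analysed here.

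On chromosome X, which entered no comparison above, the lists held 2590 WT and 772 KO peaks. The loci of heat shock and chaperone genes HSPH1 and HSP90B1 are both among those with more KO than WT bases named in the report. They were noticed among the largest differences, and no set of chaperone genes was examined.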
